A study of Mus musculus with 6 samples.

Results

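Solute carrier genes, named Slc followed by a family number, encode membrane transporters, and their DNA methylation was compared between control organoids and organoids given DM-aKG. All genes of the mouse annotation whose symbol has this form were taken, each with its span and 1000 bases on either side, and a gene was measured where at least 3 cytosine positions had a value in all 6 libraries. Of 384 such genes, 236 lay in the stretch of the deposited table that was used, and 178 of these were measured, out of 9197 genes of any kind. Another 11 had only 1 or 2 such positions and 47 had none, and 148 lay outside the stretch. Of the 178, 174 encode carriers or their subunits, 2 are regulators of the sodium/proton exchanger Slc9a3 that carry the family's symbol (Slc9a3r1 and Slc9a3r2), and 2 are antisense RNAs (Slc13a2os and Slc6a19os). They fall into 45 families on 13 chromosomes.

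The study used reduced representation bisulfite sequencing, which reads the methylation of cytosines in CpG-rich fragments, on intestinal organoids of the genotype Apc Min, labelled as primary cells and grown in vitro. Apc Min is a truncating mutation of Apc, an inhibitor of Wnt signalling. All 6 samples share this genotype, the organoid medium and the low glutamine medium. The control group has 3 biological replicates and the DM-aKG group has 3, and the series title ties the compound to α-ketoglutarate, which TET enzymes use when they oxidise methylated cytosine. The comparison asks how methylation differs with this treatment. The dose, the time and the age and sex of the donor animals are not given in the labels. Methylation levels alone do not check the labelled cell type.

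Each value is a percent of methylation at 1 position in 1 library. Levels in the table are either 0 or at least 40%, so a 0 can stand for a low level or for a missing call, and zeros were left out. The results therefore describe positions at 40% or more in every library, and most unmethylated promoters are outside them. Values were used up to chromosome 3 position 87947903, because beyond it 2 of the control libraries no longer correlated with the other 4 (r from -0.00432 to -0.00137, against 0.598 to 0.770 between any pair of libraries before it). Over the 272327 complete positions the library means ran from 86.7% to 88.0% in the controls and from 88.3% to 88.9% with DM-aKG. The table has no coverage, and the depth of each value is unknown.

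Solute carriers move sugars, amino acids, nucleosides, vitamins, metals and ions across cell membranes, and the number in the symbol groups proteins of related sequence. In the intestine, carriers of the apical brush border take up digested nutrients, and others in the basolateral membrane pass them on to the blood. The Slc25 family works mostly in the inner mitochondrial membrane and includes carriers that exchange α-ketoglutarate and glutamate. Slc13 carriers bring dicarboxylates into the cell. DNA methylation of a CpG-rich promoter is known to accompany silencing, whereas gene bodies are commonly methylated in expressed and silent genes alike.

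Few of the measured positions lay in promoters. RefSeq promoter windows of build GRCm38.p6, the assembly of mm10, run from 250 bases before to 50 bases after a listed transcription start and were found for 140 of the 178 genes, as 180 windows. Of these windows, 6, from 5 genes, held a position with a value in all 6 libraries. That is 3.33% of the solute carrier windows, beside 2.69% of 18212 windows of all genes. A median solute carrier window held 13 CpGs, against 7 over all windows, and the motif CCGG, searched in the window and identical on both strands, occurred in 70.6% of them against 53.4% of all. The 250 bases before the start are shown for the 4 genes with more than 1 measured promoter position, 5′ to 3′ on the gene's strand, with each measured CpG in capitals, because these are the member promoters the table reports on.
Slc25a31 (chr3:40708621-40708870, plus strand): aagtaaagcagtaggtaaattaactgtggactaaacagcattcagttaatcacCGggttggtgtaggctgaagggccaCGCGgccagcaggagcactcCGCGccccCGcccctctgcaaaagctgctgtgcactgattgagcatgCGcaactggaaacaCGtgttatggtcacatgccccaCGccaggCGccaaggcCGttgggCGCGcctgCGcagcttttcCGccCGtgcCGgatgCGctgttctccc
Slc7a7 (chr14:54417680-54417929, minus strand): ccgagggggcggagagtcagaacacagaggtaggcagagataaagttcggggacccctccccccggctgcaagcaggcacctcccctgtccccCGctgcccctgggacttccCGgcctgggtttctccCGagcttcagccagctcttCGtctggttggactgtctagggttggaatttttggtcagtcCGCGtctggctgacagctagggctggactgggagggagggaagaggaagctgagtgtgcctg
Slc25a47 (chr12:108850879-108851128, plus strand): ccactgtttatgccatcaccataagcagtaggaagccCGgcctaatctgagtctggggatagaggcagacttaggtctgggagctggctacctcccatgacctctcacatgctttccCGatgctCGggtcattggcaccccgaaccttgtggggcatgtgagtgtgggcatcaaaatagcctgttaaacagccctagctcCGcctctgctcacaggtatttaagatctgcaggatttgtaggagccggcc
Slc17a8 (chr10:89621250-89621499, minus strand): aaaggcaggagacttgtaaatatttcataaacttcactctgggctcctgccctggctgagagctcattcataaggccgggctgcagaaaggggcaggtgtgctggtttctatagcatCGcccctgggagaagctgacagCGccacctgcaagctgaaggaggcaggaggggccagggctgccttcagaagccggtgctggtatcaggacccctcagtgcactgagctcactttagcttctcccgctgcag

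Slc25a31, an ADP/ATP carrier known from male germ cells, had the most densely measured promoter. Every CpG of its 250 upstream bases was measured, 18 of 18, against 6 of 10 in Slc7a7, 4 of 6 in Slc25a47 and 2 of 5 in Slc17a8. Over the 42 positions of its window (both strands of a CpG count as separate positions) the level was 96.0%, 95.4% and 96.2% in the 3 controls and 96.6%, 97.0% and 93.3% with DM-aKG. The groups overlapped, and their means were 95.9% ± 0.423 (SD, n = 3) and 95.6% ± 2.05 (SD, n = 3). The promoter was thus close to fully methylated in both groups, with 8 of the 42 positions at 100% in all 6 libraries and the lowest position at a mean of 71.5%.

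**Figure D1:**
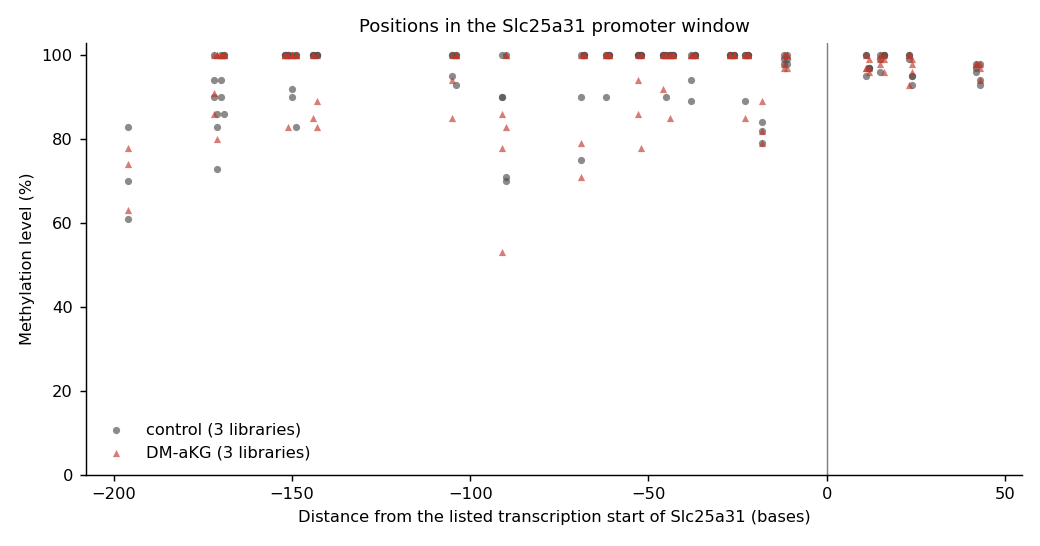
Methylation level (vertical axis, %) of each measured position in the Slc25a31 promoter window against its distance in bases from the listed start (horizontal axis), with 1 point for each of 3 control and 3 DM-aKG libraries. Points of both groups lie near 100% along the window, and the position 196 bases before the start has the lowest mean, 71.5%.

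Slc7a7, the light subunit of a cationic amino acid exchanger of the basolateral membrane, was also highly methylated at its measured promoter windows in all libraries. Their starts, 54417679 and 54417702 on the minus strand, lie inside the gene span, which ends at 54420068. They are internal starts and do not describe a promoter at the outer end of the span. The Slc7a7 window at 54417679 averaged 94.5% ± 1.09 in the controls and 95.0% ± 2.24 with DM-aKG (SD, n = 3 each) over 16 positions. Slc25a47 had a lower and more variable promoter level, 71.5%, 79.3% and 80.8% in the controls and 83.0%, 77.0% and 84.2% with DM-aKG over 6 positions. This window too belongs to an internal start, 108851129 on the plus strand, in a gene span that begins at 108849833. Slc17a8, the vesicular glutamate transporter VGLUT3, averaged 81.0% ± 4.55 and 82.9% ± 4.91 (SD, n = 3 each) over 4 positions. In all of these windows the 2 groups overlapped.

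Across the 178 genes the methylation level was slightly higher with DM-aKG, to about the same extent as across all genes. The mean over the genes was 86.6%, 87.7% and 87.6% in the 3 controls and 88.2%, 88.6% and 88.6% with DM-aKG. All 3 treated libraries lay above all 3 controls. The group means were 87.3% ± 0.598 and 88.5% ± 0.198 (SD, n = 3 each). Of the genes, 125 had a higher mean with DM-aKG and 53 a lower one, which is 70.2% higher, beside 66.3% of all 9197 genes. With the library means equalised the split was 89 higher of 178, a setting that takes the general difference between the libraries out of every gene alike. The median difference was 1.01 percentage points, beside 0.733 over all genes. Equalising the library means shifted these medians to -0.00146 and -0.317. As single libraries were left out, they ran from 0.703 to 1.28 and from 0.487 to 0.833. Both were lowest without control replicate 1, the library with the lowest mean over the 178 genes and over all genes.

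No solute carrier gene passed the test. With limma on the log2 odds of the gene mean and Benjamini-Hochberg adjustment over all 9197 genes, 0 of the 178 had an adjusted p under 0.05, as did 0 of all genes (0%), and the smallest adjusted p among the 178 was 0.764. At an unadjusted limma p under 0.05 there were 10, or 5.62% of them beside a background of 6.23%. Of these 10, 8 were higher (background 4.94%) and 2 lower (background 1.29%). The 3 control and 3 treated values did not overlap in 19 genes that were higher (10.7%, background 11.3%) and in 5 that were lower (2.81%, background 2.53%). Both shares lie close to those of all genes. The genes named below were chosen by these p-values, by family or by the lists, and the limma adjusted p was 0.764 or more in every one of them. In 160 of the 178 genes the difference was under 5 percentage points.

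Markers of other cell types were measured in the same way beside these counts. Of 20 fibroblast markers 13 were measured and 12 of them had a higher mean with DM-aKG, with a median difference of 2.65 points and library means of 80.5% to 83.4% in the controls and 83.9% to 86.9% with DM-aKG. Of 18 endothelial markers 6 were measured, 5 higher and 1 lower (median 1.45). Their library means were 80.8%, 84.0% and 84.0% in the controls and 84.0%, 83.8% and 85.5% with DM-aKG. Of 20 immune markers 6 were measured, 3 higher and 3 lower (median 0.667). Their means were 82.9%, 85.8% and 86.0% in the controls and 86.6%, 85.8% and 85.2% with DM-aKG. Of 26 enterocyte markers other than carriers 12 were measured, 5 higher and 7 lower (median -0.237). Their means were 86.0%, 88.3% and 88.4% in the controls and 88.0%, 88.1% and 87.8% with DM-aKG. Control replicate 1 was the lowest library in each of these marker lists. These are methylation levels and not counts of cells, and the part of other cell types in the differences was not tested.

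Among the 12 families with at least 5 measured genes, which hold 108 of the 178, 10 had a median difference above 0 and 2 had one below 0. The Slc25 family was the most numerous with 20 genes, of which 17 were higher and 3 lower. It is grouped here as the mitochondrial inner membrane carriers, though it includes the peroxisomal carrier Slc25a17. Its mean over genes was 87.8%, 89.2% and 89.9% in the controls and 90.8%, 90.7% and 90.8% with DM-aKG, so the groups did not overlap. The median difference of 1.55 points became 0.500 with library means equalised and -0.650 when 0 was counted as a level. Its differences ran from -2.74 to 6.94 points, and no member passed the test.

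The Slc22 family, which carries organic cations and anions, had 14 genes higher and 3 lower out of 17, with a median difference of 2.11 points that stayed above 0 under both of these settings (1.06 and 1.74). The library means were 81.9%, 86.6% and 85.3% in the controls and 87.7%, 86.7% and 87.5% with DM-aKG. Control replicate 1 is the low library here. It was the lowest control in 14 of the 17 genes, beside 48.4% of all genes, and without it the median difference was 1.04. No Slc22 gene had groups that did not overlap. The lowest p belonged to Slc22a8, the organic anion transporter OAT3, with 3 positions and values of 70.7%, 79.0% and 77.7% in the controls and 88.0%, 83.3% and 78.7% with DM-aKG.

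The Slc35 family is grouped here under nucleotide-sugar transport in the Golgi and endoplasmic reticulum, a label that need not hold for each gene. All 8 of its measured genes were higher with DM-aKG, by 0.433 to 4.08 points. That direction also rests on control replicate 1, which was the lowest control in 7 of the 8: the median of 1.11 points became -0.0853 without this library. It was 0.0586 with library means equalised and -0.764 with 0 counted as a level. Slc35e4 had the smallest p of the family, with 87.9%, 89.1% and 91.1% in the controls and 91.1%, 94.0% and 95.3% with DM-aKG. Its highest control equalled its lowest treated library.

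Of these 12 families, the Slc2 family of facilitative hexose transporters had the highest median, 2.43 points, with 5 of 6 genes higher. Its library means were 84.5%, 84.5% and 85.1% in the controls and 86.1%, 88.1% and 87.1% with DM-aKG, which do not overlap. The median was 1.38 with library means equalised and -1.82 with 0 counted as a level. Slc2a10 and Slc2a12, chosen here after their values were seen, were the 2 members whose groups did not overlap. Slc2a10 gave 80.2%, 78.3% and 79.8% in the controls and 82.5%, 83.5% and 81.2% with DM-aKG.

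Zinc importers of the Slc39 family pointed both ways, 7 higher and 4 lower of 11, with a median of 0.872 points that became -0.179 with library means equalised, -2.72 with 0 counted as a level and 0.0551 with 2000 bases on either side of the gene. It also varied from 0.200 to 1.41 as single libraries were left out, the lowest without DM-aKG replicate 1 and the highest without control replicate 3. The Slc16 family is grouped here under monocarboxylate transport, though it includes the aromatic amino acid transporter Slc16a10. It had 7 of 10 genes higher and a median of 0.537, which was -0.0407 without control replicate 3. Without treated replicates 1, 2 and 3 in turn the median was 0.0556, 1.15 and 0.321. It was -0.514 with library means equalised and -3.41 with 0 counted as a level. In both families the library means of the 2 groups overlapped. Slc16a7, the monocarboxylate transporter MCT2, had the lowest p of Slc16, with 78.6%, 93.5% and 89.6% in the controls against 90.1%, 94.5% and 93.3%. Control replicate 1 was its low library, and its difference of 5.40 points was 1.08 without that library.

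The sodium-coupled neutral amino acid carriers of Slc38 had 5 of 7 genes higher (median 1.31, 0.255 with library means equalised and -0.435 with 0 counted as a level). Bicarbonate transporters of Slc4 had 4 of 6 higher (median 1.32, 0.267 with library means equalised, 0.562 with 2000 bases on either side of the gene, 0.599 without control replicate 1, 0.522 without treated replicate 3 and 2.02 without treated replicate 1). Cation-chloride cotransporters of Slc12 had 4 of 6 higher (median 1.07, 0.0216 with library means equalised, -2.81 with 0 counted as a level, 0.0241 without control replicate 2, 0.421 without control replicate 3, 1.66 without control replicate 1 and 0.687 without treated replicate 3). None of these 3 families had a direction that held at a similar size in every setting. The Slc6 family of neurotransmitter and amino acid carriers had 3 of 5 higher with a median of 0.472, which was -0.833 over the gene span alone, 0.058 with 2000 bases on either side, -0.667 without control replicate 3, 0.881 without treated replicate 1, -0.578 with library means equalised and -4.96 with 0 counted as a level.

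The sodium/proton exchangers of Slc9 and the anion exchangers of Slc26 were the 2 of these 12 families with medians below 0. In Slc9, whose 6 genes include the regulators Slc9a3r1 and Slc9a3r2, 4 of 6 were lower, with a median of -0.893, the same without the regulators (-1.94 with library means equalised, -3.60 with 0 counted as a level, -0.530 without control replicate 3, and -0.323 and -0.488 without treated replicates 1 and 3). In Slc26, 4 of 6 were lower, with a median of -0.348 (-0.0113 without treated replicate 3, -0.753 without treated replicate 2, -1.40 with library means equalised and -1.35 with 0 counted as a level). Their library means overlapped between the groups, at 91.3% to 92.8% against 91.2% to 93.7% in Slc9 and 87.8% to 89.7% against 87.6% to 89.5% in Slc26.

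**Figure D2:**
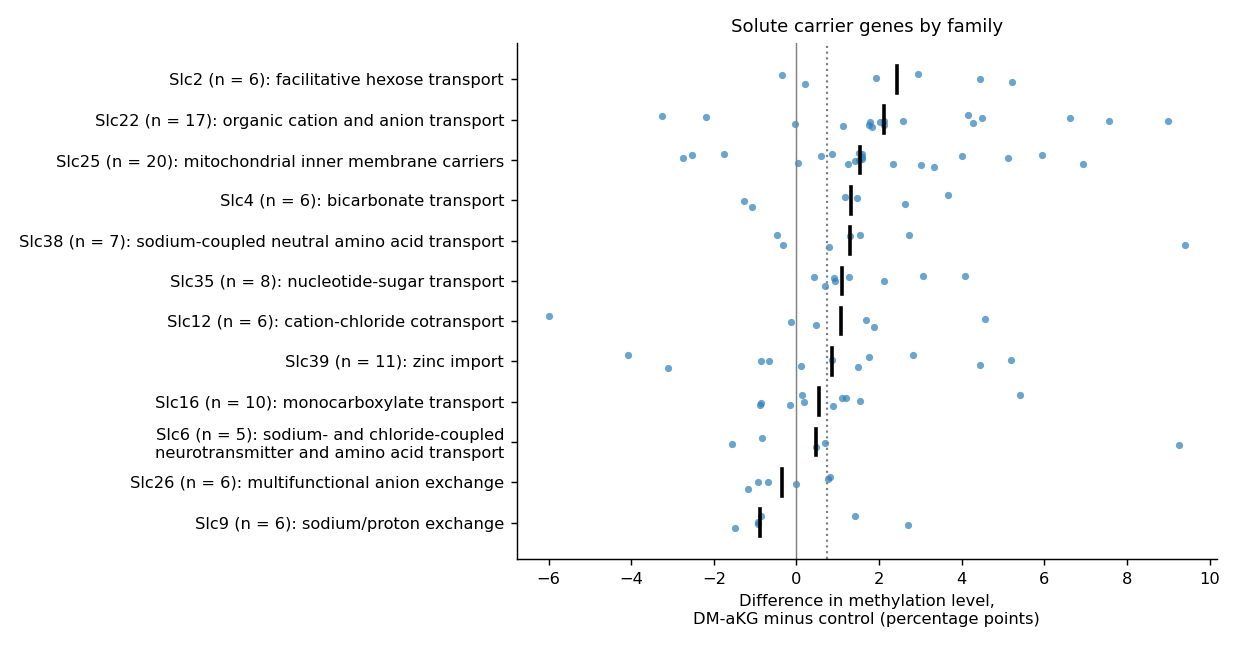
Difference in methylation level (horizontal axis, DM-aKG minus control, percentage points) of each measured gene (points) in the 12 families with at least 5 measured genes, with the family median as a vertical bar. The dotted line marks the median of all 9197 genes, 0.733, and the medians run from -0.893 in Slc9 to 2.43 in Slc2.

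Zinc importers also stood among the single genes with the lowest p. Slc39a2 (ZIP2, a zinc importer of the plasma membrane, chr14:51893082-51896745) had the lowest p of all 178 genes. Its 5 positions, all inside the gene span, averaged 87.8%, 90.4% and 92.2% in the controls and 94.2%, 95.0% and 96.8% with DM-aKG. The treated libraries were higher than every control, with means of 90.1% ± 2.21 and 95.3% ± 1.33 (SD, n = 3 each), and the change in log2 odds was 1.03 ± 0.26 (SE; limma adjusted p = 0.764). All 5 positions had a higher mean with DM-aKG, but at each single position the groups overlapped.

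Slc39a10 (ZIP10, chr1:46807544-46925776) gave 78.7%, 80.4% and 78.5% in the controls and 83.7%, 82.4% and 84.8% with DM-aKG over 22 positions, of which 17 were higher and 5 lower. The difference was 4.45 points with a standard error of 0.910 (from the 3 libraries of each group), but it did not pass limma's test after adjustment (adjusted p = 0.764), and it became -12.2 points with 0 counted as a level. Slc39a12 (ZIP12) gave 91.0%, 93.7% and 93.6% against 97.1%, 95.6% and 94.0% over 7 positions. Slc39a7, which releases zinc from the endoplasmic reticulum, went the other way over 12 positions, with 86.3%, 88.8% and 87.2% in the controls and 86.0%, 86.1% and 80.9% with DM-aKG. The low treated value came from replicate 3, and the difference of -3.11 points was -1.40 without that library. The gap between its groups was 0.25 points.

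Of the other genes whose treated values all lay above the controls, Slc6a3, the dopamine transporter, had the largest difference. Its 5 positions averaged 64.2%, 75.8% and 80.4% in the controls and 81.2%, 83.0% and 84.0% with DM-aKG. Control replicate 1 was its lowest library by far, and the difference of 9.27 points was 4.63 without it and -4.96 with 0 counted as a level. Slc36a1, a proton-coupled amino acid transporter, was more even over 34 positions, with 91.1%, 91.0% and 88.9% in the controls and 93.0%, 93.1% and 93.4% with DM-aKG, though it too turned, to -2.26 points, with 0 counted as a level.

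The sodium/calcium exchangers Slc8a1 and Slc8a3 both had higher levels with DM-aKG, without overlap. Slc8a3 gave 73.1%, 77.9% and 76.8% in the controls and 80.6%, 78.7% and 83.8% with DM-aKG over 29 positions. Slc8a1 gave 79.5%, 83.0% and 83.5% against 86.1%, 85.0% and 84.8% over 26 positions. In each of the 2 genes, 20 or 21 positions had a higher mean with DM-aKG and 6 or 7 a lower one. With 0 counted as a level the difference of Slc8a1 fell from 3.33 to 0.0991 points, and that of Slc8a3 rose from 5.11 to 7.24.

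Among the mitochondrial carriers, Slc25a41, an ATP-Mg/phosphate carrier, gave 70.2%, 76.5% and 80.3% in the controls and 81.2%, 81.2% and 85.5% with DM-aKG over 6 positions. Its difference of 6.94 points was 4.19 without control replicate 1, 3.00 over the gene span alone and 20.5 with 0 counted as a level. Slc25a47 gave 87.5%, 89.4% and 88.8% against 90.8%, 89.5% and 92.5% over 24 positions. The gap between the groups of Slc25a47 was under 0.1 point, and its difference became -1.54 points with 0 counted as a level. Slc25a48 had the lowest p of the family, with 76.2%, 80% and 82.2% in the controls and 85.2%, 82.2% and 88.8% with DM-aKG, where the highest control equalled the lowest treated library.

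Slc15a1, the proton-coupled peptide transporter PepT1 of the small intestine, gave 93.5%, 91.6% and 94.1% in the controls and 94.6%, 95.9% and 94.9% with DM-aKG over 17 positions. The groups were separate by under 1 point, and with 0 counted as a level the difference of 2.08 points became -1.81.

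The lowest of all 178 differences belonged to Slc13a2, the sodium/dicarboxylate cotransporter NaDC1 of the apical membrane, which carries citrate, succinate and α-ketoglutarate (chr11:78397276-78422281). Its 5 positions averaged 91.2%, 85.6% and 81.0% in the controls and 73.4%, 79.2% and 65.6% with DM-aKG. Every treated library lay below every control, with means of 85.9% ± 5.11 and 72.7% ± 6.82 (SD, n = 3 each), a difference of -13.2 points and a change in log2 odds of -1.18 ± 0.37 (SE; limma adjusted p = 0.764). The difference ran from -16.4 to -9.63 points as single libraries were left out. It was -6.93 with 2000 bases on either side of the gene and -24.8 with 0 counted as a level.

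None of the 5 positions lies inside Slc13a2 itself. They sit 20 to 375 bases outside its span and inside the span of the antisense RNA Slc13a2os (chr11:78394485-78405657), which has the same 5 positions, so the 2 genes are 1 measurement and cannot be told apart. At position 78397256 the levels were 93%, 84% and 86% in the controls and 74%, 75% and 59% with DM-aKG, and at 78397255 they were 80%, 89% and 77% against 73%, 74% and 75%. These 2 positions, which are 1 base apart, were those whose groups did not overlap. At 78396901 the level was 100% in 5 of the 6 libraries. The 2 other measured Slc13 genes were higher with DM-aKG: Slc13a3 by 2.63 points and Slc13a5, a citrate transporter, by 2.71 points. The value of Slc13a5 was 1.26 without control replicate 3, 1.52 without treated replicate 3 and -1.31 with 0 counted as a level.

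Slc29a2, an equilibrative nucleoside transporter, gave 95.7%, 93.2% and 92.9% in the controls and 91.9%, 91.8% and 92.0% with DM-aKG over 21 positions. The treated libraries lay within 0.238 points of each other, and the spread lay in the controls. Slc3a1, the heavy subunit of the cystine and dibasic amino acid transporter, gave 94.6%, 94.3% and 94.2% against 94.1%, 92.6% and 94.0% over 30 positions. Its difference was -0.833 points, and 5.44 with 0 counted as a level.

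**Figure D3:**
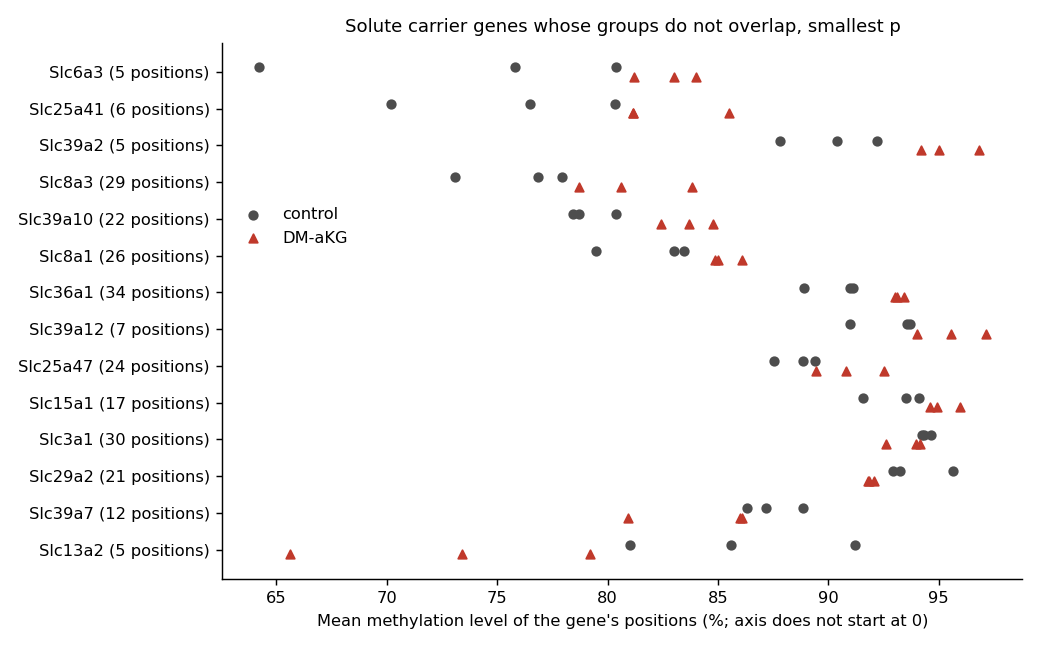
Mean methylation level (horizontal axis, %) in each of the 3 control (circles) and 3 DM-aKG (triangles) libraries of the solute carrier genes whose groups do not overlap and whose p is lowest, 10 higher and 4 lower with DM-aKG; the axis does not start at 0. Slc13a2 has the largest difference, with means of 85.9% and 72.7%; Slc13a2os has the same positions and is not drawn.

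Carriers of glutamine, glutamate, α-ketoglutarate and related acids are of interest because the medium was low in glutamine and the compound relates to α-ketoglutarate. Of 41 such genes listed, 22 were measured, 14 higher and 8 lower with DM-aKG, with a median difference of 0.727 points beside 0.733 for all genes. None passed the test. The library means were 87.7%, 87.4% and 87.7% in the controls and 87.0%, 87.9% and 88.5% with DM-aKG, which overlap. The median was -0.323 with library means equalised and -2.53 with 0 counted as a level.

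The plasma membrane carriers of this list with the most positions differed little. Slc38a1, a glutamine importer, averaged 95.0% ± 0.472 in the controls and 94.7% ± 0.595 with DM-aKG (SD, n = 3 each) over 71 positions. Slc7a8, the light subunit of an exchanger of neutral amino acids, averaged 92.4% ± 0.847 and 93.0% ± 0.605 over 55 positions, and Slc7a7 averaged 91.7% ± 0.463 and 91.2% ± 1.43 over 59. In these 3 genes the groups overlapped. Slc1a3, the glutamate uptake carrier GLAST, averaged 86.5% ± 2.49 and 88.7% ± 2.13 over 41 positions, also with overlap.

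Slc13a3, the dicarboxylate cotransporter NaDC3, gave 73.4%, 73.8% and 75.6% in the controls and 75.9%, 77.5% and 77.3% with DM-aKG over 55 positions. The groups did not overlap, but by a margin of under 0.3 point. Slc38a9, an amino acid sensor and carrier of the lysosome, gave 86.3%, 86.0% and 86.5% against 86.8%, 87.5% and 89.1% over 61 positions, 14 of which lie in another gene's window too. These were the 2 genes of the list that were higher without overlap.

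In mitochondria, Slc25a21, which exchanges oxoadipate for α-ketoglutarate, gave 83.0%, 85.2% and 84.5% in the controls and 85.0%, 88.8% and 87.9% with DM-aKG over 66 positions. Its lowest treated library fell between the controls. Slc25a12, the aspartate/glutamate carrier, averaged 88.4% ± 1.39 and 89.7% ± 0.556 (SD, n = 3 each) over 52 positions, with overlap. The other 14 genes of the list differed by -13.2 (Slc13a2) to 3.60 points (Slc17a8), 8 higher and 6 lower, and among them the groups were separate in Slc13a2 and Slc3a1.

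The median over a list of enterocyte carriers pointed the other way from that of the rest. The list was chosen with earlier results of these data known. It also holds the regulators Slc9a3r1 and Slc9a3r2 and the mitochondrial carrier Slc25a45. Of 53 listed genes 28 were measured, 11 higher and 17 lower with DM-aKG (median difference -0.715 points), whereas the 150 remaining solute carrier genes had 114 higher and 36 lower and a median of 1.30. The mean over the 28 genes was 91.9%, 91.0% and 91.4% in the controls and 90.7%, 90.9% and 90.4% with DM-aKG. The groups were separate by 0.0235 points, with means of 91.4% ± 0.488 and 90.7% ± 0.288 (SD, n = 3 each). The mean difference over the genes was -0.762, and -0.302 without Slc13a2, when the library means overlapped (91.2% to 92.0% against 91.3% to 91.4%). The median was -0.289 without control replicate 1, and -0.433 and -0.443 without treated replicates 1 and 2. It was -1.77 with library means equalised and -4.20 with 0 counted as a level.

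None of the 28 passed the test, and 1, Slc13a2, had an unadjusted limma p under 0.05 (3.57%, beside 6.23% of all genes). The difference between the list and the other carriers was not tested. The listed genes had high levels, and 20 of the 28 averaged 90% or more. At that level 7 of the 20 were higher and 13 lower (median -0.715), beside 40 higher and 14 lower (median 0.669) in the 54 other carrier genes of 90% or more. The 12 enterocyte markers that are not carriers, given above, had 7 genes lower and 5 higher. Their mean difference was 0.388 points and their libraries overlapped. Control replicate 1 was their lowest library, at 86.0%. Every treated library lay below control replicates 2 and 3 (87.8% to 88.1% against 88.3% and 88.4%).

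The genes of the enterocyte list with the most positions differed by less than 2 points. Slc9a2, the sodium/proton exchanger NHE2, averaged 95.2% ± 0.648 in the controls and 94.3% ± 0.841 with DM-aKG (SD, n = 3 each) over 50 positions. Slc44a4, which takes up thiamine pyrophosphate, averaged 91.0% ± 1.95 and 90% ± 0.230 over 38, and Slc16a10, an aromatic amino acid transporter, averaged 95.4% ± 0.541 and 94.5% ± 1.24 over 37. Slc9a3r1, the brush border scaffold NHERF1, averaged 88.8% ± 0.590 and 87.3% ± 1.12 over 35. Of these 35, 14 lie inside its span, and its difference of -1.50 points was -3.52 over the gene span alone. In these 4 genes the mean was lower with DM-aKG and the groups overlapped.

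Slc16a3, the lactate exporter MCT4, averaged 92.8% ± 2.35 and 92.7% ± 1.10 (SD, n = 3 each) over 41 positions. Of these 41, 16 lie inside its span and 26 lie in another gene's window. Its difference of -0.154 points was -5.08 over the gene span alone and -3.51 over positions in no other gene's window. Slc11a2, the iron importer DMT1, averaged 91.5% ± 1.91 and 91.9% ± 0.672 over 33. Slc28a3, a concentrative nucleoside transporter, was, beside Slc15a1, the other gene of the list that was higher without overlap, at 87.0%, 87.5% and 86.0% in the controls and 87.6%, 87.6% and 87.8% with DM-aKG over 45 positions, though its difference of 0.815 points became -0.236 with library means equalised. Slc7a7 is described above with the amino acid carriers. The 20 other genes of the list ran from -13.2 (Slc13a2) to 3.25 points (Slc28a2), 9 higher and 11 lower, and the zinc importers of the gut were split, with Slc39a4 of the apical membrane at 0.872 and Slc39a5 of the basolateral membrane at -4.08. The groups of both zinc importers overlapped.

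**Figure D4:**
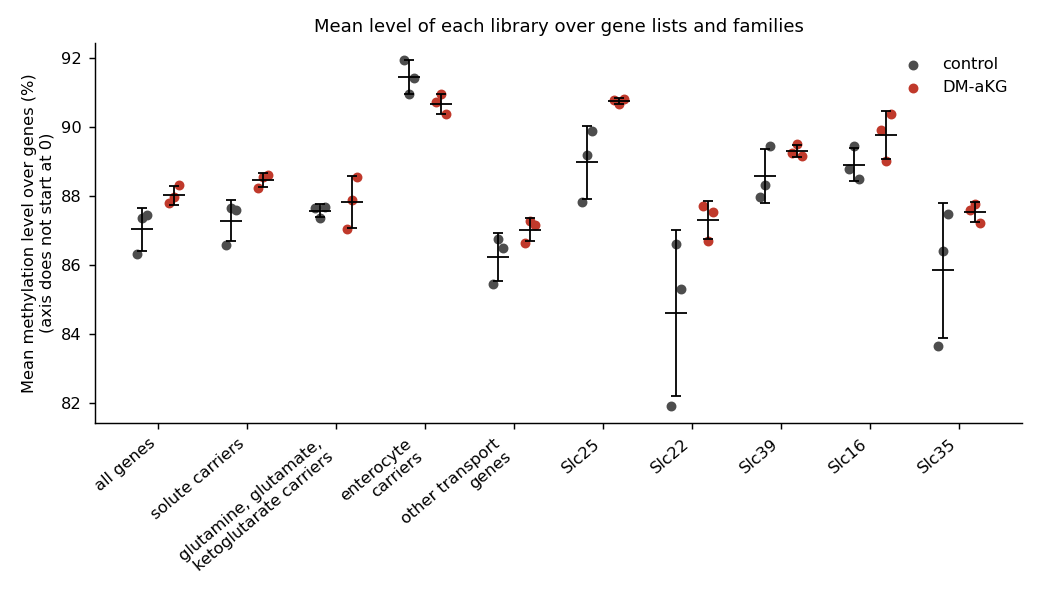
Mean level of methylation over the genes of a list or family (vertical axis, %; the axis does not start at 0) in each control (grey) and DM-aKG (red) library, with the mean and SD of the 3 libraries as bars. The treated libraries lie above the controls over all genes, all solute carriers, Slc25 and Slc22. In Slc22 the margin is narrow, with the lowest treated library at 86.7% and the highest control at 86.6%. Over the enterocyte carriers the treated libraries lie below the controls (90.4% to 90.9% against 91.0% to 91.9%), by a gap of 0.0235 points.

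Carriers were also grouped by the substrate class given to their family, with the regulators and antisense RNAs left out. Among classes with more than 2 members, 17 metal carriers had the lowest share of higher genes (10 of 17, median 0.143 points). The 12 carriers of vesicles and organelles had the highest (11 of 12, median 1.63). These include the 8 Slc35 genes, all higher, whose median was -0.0853 without control replicate 1. The 32 carriers of ions and protons had 20 higher (median 0.893), the 27 amino acid carriers 18 (0.800), the 19 carriers of organic ions and bile acids 15 (2.03), the 15 of vitamins, nucleosides and choline 12 (0.815), the 13 of carboxylates 9 (0.889) and the 13 of sugars 8 (0.241). Of the 19 carriers of organic ions and bile acids, 17 are the Slc22 genes described above. None of these classes had a gene past the test. Transport genes outside the Slc names, such as pumps, ABC transporters and aquaporins, were counted in the same way. Of 115 listed 53 were measured, 35 higher and 18 lower (median 0.386 points, -0.665 with library means equalised and -1.79 with 0 counted as a level), and 6 of the 53 were higher without overlap (11.3%, as in all genes).

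Differences were larger in genes of lower level. The 24 solute carrier genes under 80% had a median difference of 3.59 points with 21 higher (87.5%). Over the 1307 genes of that level in the table the median was 1.95 with 70.3% higher. The median standard error of a gene was 3.76 points in the 24 and 2.99 in the 1307, and the difference between these sets was not tested. The 80 genes from 80% to 90% had a median of 1.48 (all genes 1.36), and the 74 at 90% or more had 0.378 (all genes 0.286). The lowest level belonged to Slc12a5, the potassium/chloride cotransporter KCC2 of neurons, with 64.6%, 69.6% and 69.9% in the controls and 71.3%, 71.0% and 75.6% with DM-aKG over 20 positions. Its groups did not overlap, and its difference of 4.57 points was 2.86 without control replicate 1. The highest level belonged to Slc20a1, the phosphate carrier PiT-1, with 98.2% ± 2.52 and 99.0% ± 0.333 (SD, n = 3 each) over 3 positions.

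Among the 178 genes, differences were also larger in those with few positions, and all genes were not split in this way. The genes with 3 to 5 positions also had the lowest median level, 84.6%. It was 88.6% in those with 6 to 15, 89.6% with 16 to 31 and 88.8% with 32 or more. Genes with 3 to 5 positions had a median difference of 2.11 points (18 of 23 higher), those with 6 to 15 had 1.21 (47 of 64), those with 16 to 31 had 0.940 (31 of 45) and those with 32 or more had 0.651 (29 of 46). At the edge of the rule, the 6 genes with exactly 3 positions had differences from 0.778 to 9.0 points (median 3.61). The genes left out did not follow this: the 5 with 2 positions had differences from -9.67 to 12.7 (median -1.50), and the 6 with 1 position from -5.33 to 5.67 (median -1.0). Slc39a11, a zinc importer with 463 positions, had the most positions, with 91.0% ± 0.262 in the controls and 91.1% ± 0.698 with DM-aKG (SD, n = 3 each).

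The test was repeated at single positions. Of the 4513 positions in solute carrier genes, 2313 had a higher mean with DM-aKG, 1868 a lower one and 332 an equal one. With limma on the untransformed percent, 0 of them had an adjusted p under 0.05 over all 272327 positions (background 0%), and the smallest adjusted p was 0.578. At an unadjusted limma p under 0.05 there were 247, or 5.47%, beside 5.44% of all positions. On the log2 odds scale 6 passed (0.149% of all positions did), each with all 3 libraries of 1 group at exactly 100%. The groups did not overlap at 188 positions that were higher (4.17%, background 4.63%) and 129 that were lower (2.86%, background 2.50%).

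Large differences among positions without overlap were spread over families. In Slc9a3r2, a scaffold of the sodium/proton exchanger, position 24643156 of chromosome 17 was at 56%, 60% and 88% in the controls and 100% in all 3 treated libraries. On chromosome 11, position 120959220, which lies just past the span of Slc16a3 and also in the window of Csnk1d, had 89%, 67% and 50% against 100% in each. At these 2 positions every treated library stood at the upper limit of the scale. Slc25a17, a peroxisomal carrier, had 67%, 80% and 60% against 100%, 90% and 100% at position 81328420 of chromosome 15, and Slc39a11 had 67%, 83% and 67% against 100% in each at position 113454108 of chromosome 11.

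In the other direction, position 12423823 of chromosome 17 in Slc22a3, the organic cation transporter OCT3, was at 100% in all 3 controls and at 50%, 83% and 70% with DM-aKG. Position 85031232 of chromosome 17 in Slc3a1 was at 100% in the controls and at 75%, 50% and 93% with DM-aKG. The least spread within groups was in Slc11a1, the NRAMP1 metal carrier of phagocyte membranes, where position 74376866 of chromosome 1 had 90%, 87% and 87% in the controls and 68%, 62% and 55% with DM-aKG (limma adjusted p = 0.608). Over its 47 positions Slc11a1 differed by -1.42 points, with overlap. Slc39a11 had 88%, 73% and 100% against 56%, 67% and 67% at position 113519653 of chromosome 11, and Slc4a1, the chloride/bicarbonate exchanger of red cells, had 86%, 92% and 94% against 69%, 74% and 60% at position 102357203 of chromosome 11. None of these 9 positions passed the limma test on the untransformed percent after adjustment. On the log2 odds scale 1 of them did, position 113454108 in Slc39a11 (limma adjusted p = 0.0437).

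Positions were also grouped by their distance from the nearest listed start of the gene. Among positions at least 50000 bases from the nearest listed start, the library means were 86.4%, 87.4% and 87.5% in the controls and 87.8%, 88.4% and 88.3% with DM-aKG. From 20000 to 50000 bases the means were 86.7%, 87.8% and 87.2% against 88.3%, 88.2% and 89.3%, and from 5000 to 20000 bases 88.0%, 89.5% and 89.4% against 89.6%, 89.8% and 90%. In these 3 ranges the groups did not overlap. Under 1000 bases and from 1000 to 5000 bases they did, with differences of 0.976 and 0.122 points. Over all genes the groups were separate in every range, with differences of 0.746 to 1.33 points, and differences between ranges were not tested.

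**Figure D5:**
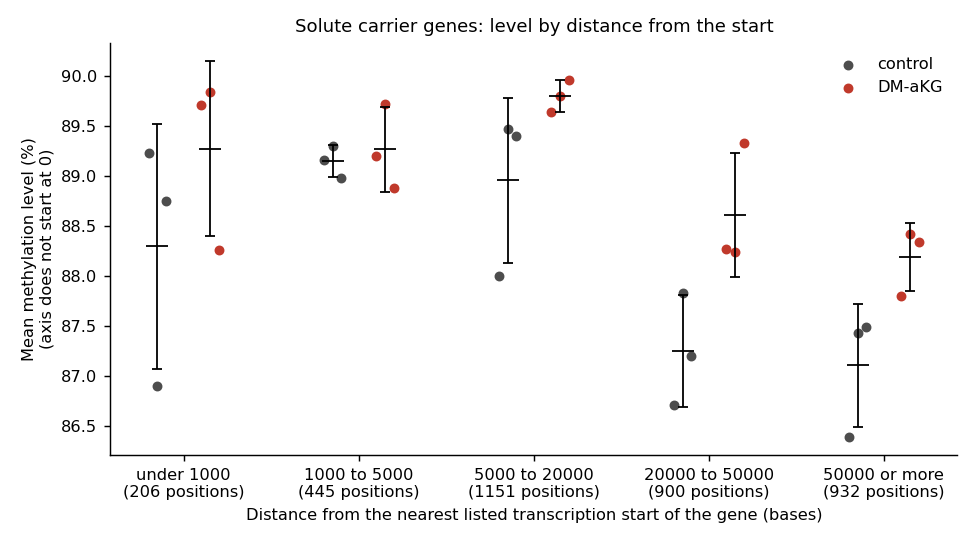
Mean level of methylation (vertical axis, %; the axis does not start at 0) of positions in solute carrier genes with a listed start, by distance in bases from the nearest start (horizontal axis), in each control (grey) and DM-aKG (red) library, with the mean and SD of the 3 libraries as bars. From 5000 bases on the 3 treated libraries lie above the 3 controls, and nearer to the start the groups overlap.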

How the data were processed

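Reduced representation bisulfite sequencing was done on 3 control and 3 DM-aKG libraries. The deposited table gives the percent of methylation per position and library, made by the authors; the submitters' processing notes name the build mm10 and the tools CASAVA 1.8 and Novoalign 3.08.02. Which caller, filters and enzyme were used is not given in the sources here. The table has 813850 rows, of which 390208 (47.9%) were used, since beyond them the libraries do not line up. Depth is unknown, so no coverage minimum or interval could be applied. Positions count from 1: of 2762 table positions inside RefSeq promoter windows, 2759 fall on a base of a CpG.

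The value of a gene is the mean of its positions that have a value in all 6 libraries. All 9197 genes were fitted in R 4.3.3 by limma 3.58.1, on log2 odds of the gene value (offset 0.01) and without a block. All 272327 positions were fitted on the untransformed percent. P-values were adjusted by Benjamini and Hochberg's method over each whole table, and 0.05 was the threshold. The tests were tried on simulated data. Medians of families and lists carry no test. Alternatives were the scale, the offset, equalised library means, the flank, the minimum of positions, overlapping genes, averaging of opposite strands, 0 as a level, a replicate block and leaving out each library. Added after the data were seen were leaving out the antisense RNAs and regulators, counting genes with the same positions once, and leaving out Slc13a2.

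Solute carrier genes and all lists were chosen with earlier results of these data known. Genes named are up to 10 per direction with the lowest p among those whose groups do not overlap, all measured members of the glutamine and enterocyte lists (the 8 with most positions of each in full), the member with the lowest p in each family of at least 8, the 5 positions per direction with the largest difference among those without overlap, and the members of lowest and highest level. One of these positions is not reported here. The alternatives are given for the 45 genes described with their own values, a choice made after the results under the alternatives were seen. The other transport genes and the markers of enterocytes, fibroblasts, immune cells and endothelium were given by counts. Of the 178 genes, 33 share a position with another gene's window and 7 share all.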

Additional observations from a re-analysis of the deposited data

How the results depend on the processing

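The 178 genes have no adjusted call (limma) under any setting run on gene means. Of all genes 0 passed as reported, 1 passed on the untransformed percent, 1 with the offset 0.05 and 7 with 0 counted as a level. With library means equalised, the median difference of all genes moved from 0.733 to -0.317 points and that of the 178 genes from 1.01 to -0.00146; genes without overlap were 9 higher and 21 lower, and the medians became 1.38 in Slc2, -0.514 in Slc16, 0.500 in Slc25, -0.179 in Slc39, -0.323 over the glutamine list, -0.665 over other transport genes and -1.77 over the enterocyte carriers (mean -1.80). Single genes that turned were Slc11a2 (-0.647), Slc20a1 (-0.0154), Slc28a3 (-0.236), Slc39a11 (-0.940), Slc39a4 (-0.179) and Slc7a8 (-0.396).

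Counting 0 as a level, which also tests positions missing in some libraries, gave medians of -0.111 over all genes and -0.500 over 183 solute carrier genes, 17 unadjusted calls, 20 lower genes without overlap, and medians of -1.82 (Slc2), -4.96 (Slc6), -3.60 (Slc9), -2.81 (Slc12), -3.41 (Slc16), -0.650 (Slc25), -0.764 (Slc35), -0.435 (Slc38), -2.72 (Slc39), -2.53 (glutamine list), -1.79 (other transport genes) and -4.20 (enterocyte carriers, mean -6.39). Under it 17 of 45 named genes turned: Slc11a2 (-6.63), Slc13a5 (-1.31), Slc15a1 (-1.81), Slc1a3 (-6.32), Slc20a1 (-27.9), Slc22a8 (-19.2), Slc25a12 (-5.68), Slc25a47 (-1.54), Slc28a2 (-10.7), Slc2a12 (-8.50), Slc36a1 (-2.26), Slc39a10 (-12.2), Slc39a11 (-2.72), Slc3a1 (5.44), Slc6a3 (-4.96), Slc7a8 (-10.7) and Slc9a3r1 (2.92). The cause was not tested. With 2000 bases on either side Slc39 had 0.0551 and Slc39a4 -0.456. Positions in no other gene's window gave the enterocyte carriers a mean of -0.361. Without Slc13a2 that mean was -0.302, and 3 lower genes lacked overlap. On log2 odds 6 positions passed.

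Leaving out 1 library gave 27 to 38 higher and 8 to 16 lower genes without overlap, since fewer values have to be apart, 6 to 12 unadjusted calls, and medians of -0.769 to -0.289 over the enterocyte carriers, 0.200 to 1.41 in Slc39 and -0.0407 to 1.15 in Slc16. Single genes that turned ranged from -1.47 to 0.785 (Slc16a3), -0.616 to 1.28 (Slc11a2), -0.667 to 1.67 (Slc20a1), -0.116 to 0.512 (Slc39a11), -1.25 to 7.13 (Slc28a2), -0.575 to 0.0235 (Slc38a1) and -1.29 to 0.0876 (Slc7a7). Positions called were 0 to 1; the 1, in Slc24a3 at 145602762 on chromosome 2, was at 100% in the controls and 50%, 50% and 100% with DM-aKG, and passed without DM-aKG replicate 3 (limma adjusted p = 0.0478). As a replicate block, the numbers gave 16 unadjusted calls in place of 10 and no adjusted one. Same-numbered libraries correlated at 0.0652, -0.0276 and 0.0306 in their deviations from the group means. The labels state no pairing, and these values cannot show whether such libraries share a donor or a batch. Precision is limited by 3 libraries a group, unknown depth and the missing levels under 40%.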

Other observations

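The share of solute carrier genes that were higher also varied between chromosomes. All genes were not split by chromosome, so whether this is particular to solute carriers is not known. Chromosome 11 was the 1 chromosome on which more of them were lower than higher, 14 against 12 of 26, with a median difference of -0.0221 points and library means of 89.0% to 89.3% in the controls and 87.9% to 89.0% with DM-aKG; 2 of the lower genes are Slc13a2 and its antisense RNA. On chromosome 10, 16 of 19 were higher, with a median of 1.53 points. Both Slc22 genes of chromosome 11, Slc22a4 and Slc22a21, were lower, whereas all 4 on chromosome 17 and 7 of 8 on chromosome 19 were higher, with medians of 3.26 and 3.37 points. These chromosomes were picked after their values were seen, and no test was made between them.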
